A study of Mus musculus with 6 samples.

Results

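The genes described here are 10 components of Wnt signalling, read in differentiating brite adipocytes after knockdown (KD) of the long noncoding RNA *Ctcflos*. They are the ligands *Wnt5a* and *Wnt5b*, the coreceptors *Lrp5* and *Lrp6*, the feedback scaffold *Axin2*, the transcriptional effectors *Ctnnb1* and *Tcf7l2*, and the secreted antagonists *Sfrp1*, *Sfrp2* and *Dkk3*. They were chosen by symbol and make up 10 of 52089 symbols and 98 of 168021 lines of the deposited table. Primary preadipocytes of the stromal-vascular fraction of inguinal white adipose tissue of 129SvEv mice were induced for 2 d and differentiated for 1 d with rosiglitazone, a PPARγ agonist that promotes browning. Cells of the KD group received 50 nM of an LNA gapmer antisense oligonucleotide against *Ctcflos* by reverse transfection, and control cells (NC ctrl) received 50 nM of a nontargeting gapmer. RNA was harvested 24 h later. Each group holds 3 libraries. An effect of 1 oligonucleotide sequence and an effect of lower *Ctcflos* RNA cannot be told apart in these 6 libraries, and neither labels nor methods say whether the libraries of a group came from separate cultures, so that p-values measure only the spread between them, which may be technical.

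Wnt proteins are secreted lipid-modified ligands that bind frizzled receptors. In the canonical branch, a frizzled and the coreceptor LRP5 or LRP6 recruit the AXIN scaffold, the destruction complex no longer marks β-catenin (*Ctnnb1*) for degradation, and β-catenin activates target genes with TCF and LEF factors such as TCF7L2. *Axin2* is a classical target of this branch and feeds back on it. Noncanonical ligands such as WNT5A and WNT5B act through other receptors on cell polarity and calcium. SFRP proteins bind Wnt ligands outside the cell, and DKK proteins are mostly known for binding LRP5 and LRP6. In adipose tissue, canonical Wnt signalling is known for keeping preadipocytes undifferentiated.

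Expression is given in RPKM, that is reads normalised to transcript length and to mapped reads, averaged over the transcript accessions of a gene. The depth recovered from the values was 60.8 to 75.5 mio mapped reads in *Ctcflos* KD and 62.9 to 79.2 mio in controls. This is more than the paper states per sample. Whether both mates of a pair were counted is unknown, so that independent fragments may be fewer than the recovered reads given below. *Ctcflos* itself had 0.0969, 0.0705 and 0.210 RPKM in the KD libraries and 0.748, 0.751 and 0.840 RPKM in the controls, which left 16.1% (adjusted p = 0.0449 from limma without a filter). Residual *Ctcflos* was highest in KD replicate 3. Adipocyte markers such as *Adipoq* and *Fabp4* were abundant, and the endothelial marker *Pecam1* and the leukocyte marker *Ptprc* were below 0.5 RPKM in every library. Other markers of such cells were higher. Over all libraries, the macrophage markers *Lyz2* and *Cd68* were at 1.24 to 24.5 and 0.657 to 4.12 RPKM, and the mural marker *Acta2* at 17.2 to 83.6 RPKM. The summed RPKM of 6 adipocyte markers was 4194 to 5565 in KD and 5824 to 6482 in controls. That of 5 brite markers was 61.6 to 81.0 against 108 to 166, and neither sum overlapped between the groups. Single genes with a mean of at least 1 RPKM did not overlap in 44.8%. Most of the adipocyte sum was *Fabp4*, with means of 3291 RPKM in KD and 4041 RPKM in controls. None of the 6 adipocyte markers had an adjusted p under 0.05 (0.0687 for *Adipoq* to 0.419 for *Cd36*, limma), and *Cd36* overlapped. Of the brite markers, *Ucp1*, *Elovl3* and *Ppargc1a* were under 0.05, while *Cidea* and *Cox7a1* were not and overlapped. Differences in these bulk libraries can stem from fewer cells of a type or from less RNA per cell, which cannot be told apart.

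Of the 10 genes, only *Lrp6* passed the test. *Lrp6* fell to 64.9% of its control level, *Sfrp2* and *Sfrp1* had lower means that missed the threshold, and *Ctnnb1* and *Axin2* were above every control library without being called. The 5 genes *Lrp5*, *Lrp6*, *Ctnnb1*, *Sfrp1* and *Sfrp2* reached a mean of 1 RPKM and were tested with limma-trend on log2(RPKM + 1), among 11701 genes, with Benjamini-Hochberg adjustment at 0.05. Across all these genes 24.0% were called, 11.5% higher and 12.4% lower in *Ctcflos* KD, and 1 of the 5 was called, which is near this background. The groups did not overlap in 3 of the 5, beside 44.8% of all genes tested. The median log2 fold change of the 5 was -0.42 and that of all genes tested 0.03. *Wnt5a*, *Wnt5b*, *Axin2*, *Tcf7l2* and *Dkk3* lay under the filter and were read from a fit without it. None of these 5 was called, beside 0.461% of 12140 genes with a mean of 0.1 to 1 RPKM, and the groups did not overlap in 1 of them, beside 29.4%. Of the 5 genes past the filter, 4 had an unadjusted p under 0.05 (limma), beside 38.9% of all genes tested.

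**Figure D1:**
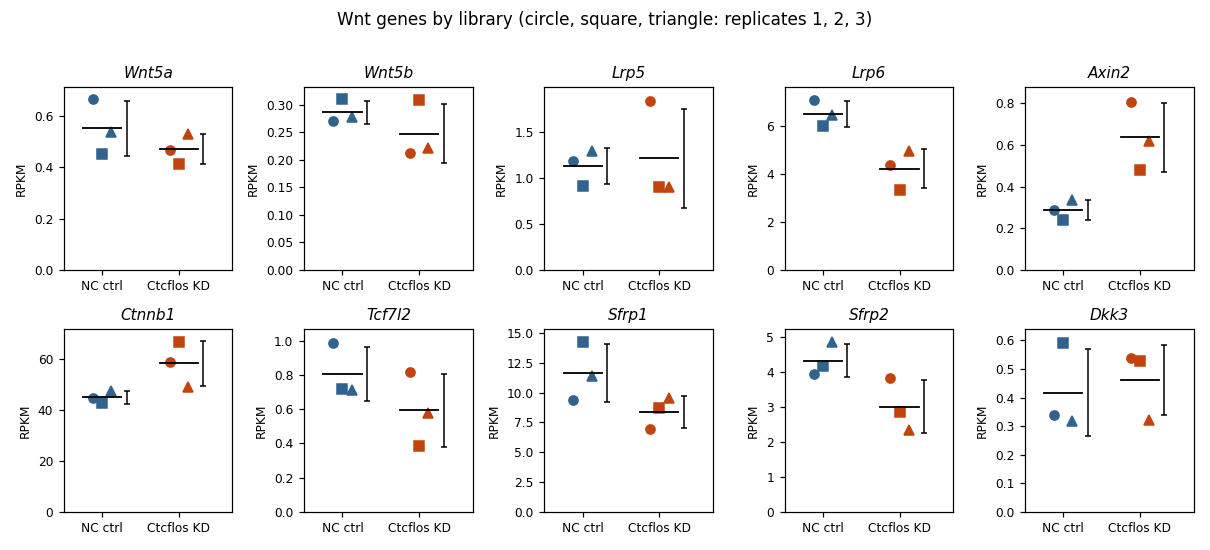
RPKM of the 10 Wnt genes (y axis, linear, from 0) in the 3 NC ctrl libraries (blue) and the 3 Ctcflos KD libraries (red). Circle, square and triangle are replicates 1, 2 and 3, the horizontal line is the mean and the bar beside it the SD. Lrp6 and Sfrp2 in KD lie below all controls, Axin2 and Ctnnb1 above them, and the other 6 genes overlap.

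Both ligands were weakly expressed. *Wnt5a*, a noncanonical ligand of mesenchymal cells, had 0.469, 0.414 and 0.532 RPKM in the KD libraries and 0.666, 0.454 and 0.538 RPKM in the controls. The groups overlapped, with control replicate 1 the highest. The log2 fold change was -0.08 (95% CI -0.25 to 0.10, adjusted p = 0.707 from limma). *Wnt5b*, its close paralog, had 0.213, 0.310 and 0.221 RPKM in KD and 0.271, 0.311 and 0.278 RPKM in controls. Again the groups overlapped, and the log2 fold change was -0.04 (95% CI -0.17 to 0.08, adjusted p = 0.783 from limma). On the longest coding transcript of *Wnt5a* listed, 242 to 310 reads were recovered per KD library and 288 to 424 per control. For *Wnt5b* there were 30 to 51 against 39 to 55 reads, so that small differences were not detectable at this depth. *Wnt5a* overlaps the antisense gene *Gm2670* and *Wnt5b* overlaps *Fbxl14* on the other strand. Genes described below also overlap others. On the same strand, *Tcf7l2* overlaps *Ppnr*, *Ryk* overlaps *Gm47427* and *Ctnnb1* overlaps *Mir7090*. On the other strand lie *Gm26771* for *Sfrp2*, *LTO1* for *Ccnd1* and pseudogenes for *Axin1* and *Daam1*. Whether strand entered the counting is unknown, and reads of such pairs cannot be told apart.

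All 19 Wnt ligand genes of the mouse had a mean under 1 RPKM, with *Wnt5a* at 0.512 RPKM the highest. Their summed RPKM was 2.63, 2.40 and 1.92 in KD and 2.00, 2.05 and 2.06 in controls (exact permutation p = 0.4, two-sided). The sums overlapped. Since 3 libraries against 3 cannot go below an exact p of 0.1, single sums and shares cannot pass the threshold here. Of the 8 ligand genes with at least 0.1 RPKM, the groups did not overlap in 5, 4 with KD above and 1 with KD below the controls. Among the 12140 genes of this level, 29.4% did not overlap. In the fit without a filter, 1 of the 8 was called, beside 0.461% of the genes of this level. This was *Wnt2*, a ligand of the canonical branch, at 0.244, 0.301 and 0.247 RPKM in KD and 0.0395, 0.0541 and 0.0616 RPKM in controls. *Wnt2* was 5.10 times its control level, with a log2 fold change of 0.26 (SE 0.0278, adjusted p = 0.0498 from limma). It rests on 39, 44 and 31 reads against 6, 9 and 8 reads on its coding transcript. All KD libraries were above all controls, at a level that is low in both groups. The call held without KD replicate 3 (adjusted p = 0.0306 from limma), and without any 1 of the other 5 libraries the adjusted p was 0.0610 to 0.211. It was also lost with a pseudocount of 0.1 (0.0586), median-of-ratios scaling (0.0722) and the most abundant accession alone (0.0560), and held in 2 of 11 alternatives in all (limma).

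Of the other genes for ligands and their release, only *Wls* passed the filter. WLS carries Wnt proteins to the cell surface, and its mRNA was at 10.6 ± 0.793 RPKM in KD and 12.6 ± 0.844 RPKM in controls (SD, n = 3 each, adjusted p = 0.169 from limma). R-spondins amplify Wnt signals through LGR receptors. *Rspo2* was at 0.647 ± 0.191 and 1.21 ± 0.246 RPKM (SD, n = 3 each, adjusted p = 0.186 from limma without a filter). With RefSeq mRNAs alone or the most abundant accession alone, *Rspo2* passed the filter and was called (adjusted p = 0.0275 and 0.0371 from limma). Without KD replicate 1 it passed the filter and was not called (adjusted p = 0.113 from limma). Over all accessions only the control mean of *Rspo2* was above 1 RPKM, and fits with the filter adjust over fewer genes. *Rspo3*, singled out after its values were seen, had 0.0598, 0.0592 and 0.234 RPKM in KD and 0.536, 0.567 and 0.595 RPKM in controls. These groups did not overlap, and the adjusted p from limma was 0.0719. It was 0.0175 without KD replicate 3 and 0.166 to 0.252 without any 1 of the other libraries, and 2 of 11 alternatives called it.

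Among the coreceptors, *Lrp6* had 4.37, 3.36 and 4.97 RPKM in the KD libraries and 7.09, 6.001 and 6.47 RPKM in the controls. Every KD library was below every control. The log2 fold change was -0.53 (SE 0.134, 95% CI -0.84 to -0.23, adjusted p = 0.0264 from limma). The direction was the same in all 12 alternatives, and the call held in 6 of them. It was not called without KD replicate 1 (adjusted p = 0.0616), KD replicate 2 (0.0696), control replicate 1 (0.109), control replicate 2 (0.0530) or control replicate 3 (0.0967), while the adjusted p without KD replicate 3 was 0.00585 (limma). *Lrp5*, the second coreceptor, had 1.84, 0.905 and 0.901 RPKM in KD and 1.18, 0.919 and 1.29 RPKM in controls. KD replicate 1 was the highest of all 6 libraries and the other KD libraries were the lowest. The log2 fold change was 0.03 (95% CI -0.35 to 0.42, adjusted p = 0.905 from limma), and its sign depended on single libraries. *Lrp6* made up 70.4, 78.8 and 84.7% of the summed coreceptor RPKM in KD and 85.7, 86.7 and 83.3% in controls (exact permutation p = 0.2, two-sided).

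*Lrp6* and *Lrp5* are long genes, spanning 120 kb on chromosome 6 (134446476 to 134566965, minus strand, GRCm38) and 102 kb on chromosome 19 (3584828 to 3686564, minus strand). Of 920 tested genes that span at least 100 kb, 45.0% were called lower in *Ctcflos* KD, and of 8499 shorter genes 10.2%. The median log2 fold change was -0.34 in the long and 0.05 in the short genes. *Lrp6* lies on the side of the long genes and *Lrp5* does not, and the part of gene length in the result was not tested.

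*Lrp6* is listed with 7 accessions, which do not all move alike. The RefSeq mRNA NM_008514 had 7.64, 5.97 and 8.69 RPKM in KD and 12.2, 10.6 and 11.3 RPKM in controls, a ratio of 0.654. The clone AK021086 had 1.84, 1.90 and 1.93 RPKM in KD and 1.68, 1.42 and 1.36 RPKM in controls, a ratio of 1.27. This clone was thus above every control while the mRNA was below every control. Its share of the summed *Lrp6* RPKM was 6.03, 8.08 and 5.56% in KD and 3.38, 3.38 and 3.00% in controls. Another clone, AK164109, had a ratio of 0.937, and the other 5 accessions had ratios between 0.598 and 0.654. The use of accessions within a gene was compared by limma diffSplice with a Simes p per gene, by which 0.668% of 10027 genes were called. *Lrp6* was called (adjusted p = 0.0223), and the other 5 tested genes, *Lrp5*, *Ctnnb1*, *Tcf7l2*, *Sfrp1* and *Sfrp2*, each had an adjusted p of 1 (limma). The *Lrp6* call held with a pseudocount of 0.1 (adjusted p = 0.0140 from limma). With accessions of at least 5% of the gene, which leave out the clone, the adjusted p from limma was 1. It was 0.00606 without KD replicate 2 and 0.00259 without KD replicate 3, and was lost without KD replicate 1 (0.177), control replicate 1 (0.262), control replicate 2 (0.157) or control replicate 3 (0.528). Accessions of a gene share reads and are not independent.

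**Figure D2:**
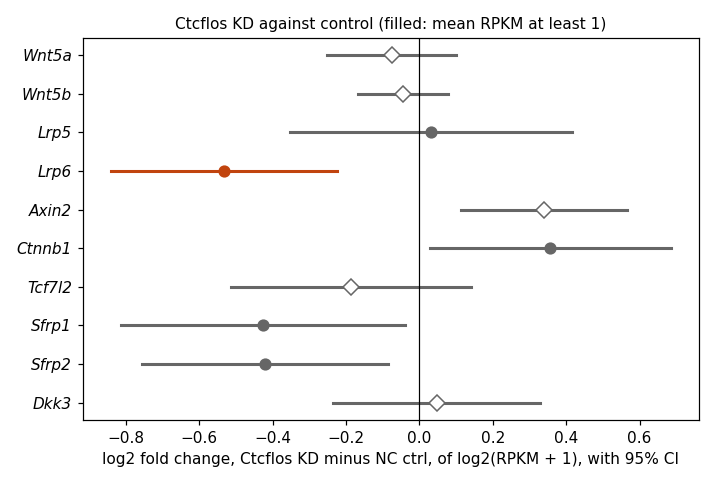
Log2 fold change of log2(RPKM + 1), Ctcflos KD minus NC ctrl, of the 10 Wnt genes with 95% confidence intervals from limma (n = 3 libraries per group). Filled circles are genes with a mean of at least 1 RPKM, open diamonds genes under it, and red marks Lrp6, the 1 gene with an adjusted p under 0.05. The intervals of Axin2, Ctnnb1, Sfrp1 and Sfrp2 leave out 0 before adjustment.

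The receptors that these coreceptors work with shifted in both directions. Of 21 genes for receptors and their turnover, 10 passed the filter and 6 were called, 3 higher and 3 lower, which is 60.0% beside 24.0% of all genes. Without KD replicate 3 there were 8 calls. Without KD replicate 1 there were 3 (*Fzd7*, *Ryk*, *Lgr4*), without KD replicate 2 or control replicate 2 there were 2 (*Ryk*, *Lgr4*), and without control replicate 1 or 3 *Lgr4* was the 1 call. *Fzd4*, the most abundant frizzled of the controls, had 11.8, 10.3 and 16.0 RPKM in KD and 18.6, 19.5 and 19.8 RPKM in controls. It fell by 0.59 on the log2 scale (SE 0.157, adjusted p = 0.0323 from limma). *Fzd7* had 9.44, 6.24 and 4.59 RPKM in KD and 3.43, 2.88 and 2.69 RPKM in controls. It rose by 0.91 on the log2 scale (SE 0.210, adjusted p = 0.0205 from limma). *Fzd1* rose from 10.9 ± 0.847 to 14.8 ± 1.53 RPKM and *Fzd2* from 1.67 ± 0.161 to 2.502 ± 0.452 RPKM (SD, n = 3 each, adjusted p = 0.0418 and 0.0469 from limma). *Fzd5* was at 2.08 ± 0.506 RPKM in KD and 1.52 ± 0.238 RPKM in controls without being called (SD, n = 3 each, adjusted p = 0.160 from limma).

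Of 7 tested frizzleds, 6 had a higher mean log2 value in KD, 3 of them called, and *Fzd4* alone a lower one. The groups did not overlap in 6 of the 7, beside 44.8% of all genes tested, while the frizzled sum overlapped. Their summed RPKM was 46.5, 38.4 and 41.3 in KD and 37.1, 39.5 and 39.6 in controls (exact permutation p = 0.3, two-sided). *Fzd4* made up 25.3, 26.9 and 38.8% of it in KD and 50.2, 49.5 and 50.0% in controls (exact permutation p = 0.1, two-sided, the smallest possible). *Fzd1* made up 35.6, 37.1 and 33.1% in KD and 27.0, 28.1 and 29.5% in controls, and *Fzd7* 20.3, 16.3 and 11.1% against 9.24, 7.29 and 6.79%. In all 3 shares the groups did not overlap, beside 44.8% of all single genes tested. The shares are parts of 1 sum, so that a lower *Fzd4* share leaves more to the others. They rest on the same values as the calls of these genes and add nothing independent. *Fzd1* rather than *Fzd4* was the most abundant frizzled in KD replicates 1 and 2.

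The Fzd7 promoter is shown because *Fzd7* rose most among the frizzleds and its promoter holds a TCF/LEF core motif, here in capitals. It covers the 250 bases before and 50 bases from the RefSeq start site, chr1:59481897-59482196 on the plus strand of GRCm38.p6.
Fzd7: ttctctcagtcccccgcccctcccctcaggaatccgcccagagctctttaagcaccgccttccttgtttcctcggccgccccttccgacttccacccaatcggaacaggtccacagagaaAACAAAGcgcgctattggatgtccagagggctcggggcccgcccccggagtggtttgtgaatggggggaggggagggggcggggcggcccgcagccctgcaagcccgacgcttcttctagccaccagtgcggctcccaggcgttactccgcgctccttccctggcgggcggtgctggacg
The motif CTTTGAT was searched on both strands, as were the variant CTTTGAA, the variant CTTTGTT and the variant CTTTGTA, of which the match is CTTTGTT read on the minus strand. The match begins at position -130 from the start site. Of 32851 RefSeq promoters of this length, 16.9% hold such a motif, and of 96 promoters of the Wnt genes and the pathway list found in the reference, 10.4%. A match in this window describes letters and is not a site shown to be bound.

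Apart from *Fzd4*, 2 further receptors fell, each with all KD libraries below all controls. *Ryk*, an atypical tyrosine kinase that binds Wnt ligands, had 3.74, 3.87 and 6.60 RPKM in KD and 10.9, 10.4 and 10.2 RPKM in controls (log2 fold change -1.04, SE 0.180, adjusted p = 0.00944 from limma). *Lgr4*, a receptor for R-spondins, had 1.60, 1.48 and 2.72 RPKM in KD and 4.80, 5.16 and 4.39 RPKM in controls (log2 fold change -1.004, SE 0.159, adjusted p = 0.00769 from limma). *Ryk* and *Lgr4* span 73.4 and 96.6 kb, whereas *Fzd4* spans 8.78 kb. *Kremen1*, a receptor of DKK proteins, overlapped between the groups at 2.03 ± 0.674 and 2.34 ± 0.520 RPKM (SD, n = 3 each, adjusted p = 0.553 from limma).

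In the destruction complex, *Axin2* had 0.807, 0.481 and 0.619 RPKM in KD and 0.288, 0.242 and 0.338 RPKM in controls. Every KD library was above every control, and the mean was 2.20 times the control mean. The log2 fold change was 0.34 (SE 0.0867, 95% CI 0.11 to 0.57), with an unadjusted p of 0.0123 and an adjusted p of 0.149 from limma, so that *Axin2* did not pass the test. None of 11 alternatives called it, with adjusted p values between 0.0904 and 0.373 (limma), and the sign was the same in all of them. On transcript ENSMUST00000106711, 177, 116 and 107 reads were recovered in KD and 65, 73 and 51 in controls. All 9 accessions had KD means above control means, with ratios from 1.96 to 2.45. They share reads, so that these ratios are not independent. *Axin2* overlaps the antisense gene *Gm11670*.

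Because *Axin2* is the classical feedback target, its promoter window is shown as well, chr11:108920099-108920398 on the plus strand of GRCm38.p6, from 250 bases before the RefSeq start site. None of the 4 motifs is in these letters, which says nothing on sites elsewhere in the gene.
Axin2: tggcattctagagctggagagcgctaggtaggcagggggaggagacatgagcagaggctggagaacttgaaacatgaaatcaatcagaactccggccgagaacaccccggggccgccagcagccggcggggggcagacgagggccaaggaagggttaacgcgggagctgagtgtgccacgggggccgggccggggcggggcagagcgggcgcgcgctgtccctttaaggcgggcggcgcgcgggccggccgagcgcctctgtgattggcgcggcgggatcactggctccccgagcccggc
Promoters were found for 5 of the 10 genes, and 2 of their 9 promoters hold a motif.

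*Axin1*, the constitutive scaffold, rose. It had 7.04, 6.12 and 3.85 RPKM in KD and 3.04, 2.99 and 3.22 RPKM in controls (log2 fold change 0.68, SE 0.177, adjusted p = 0.0300 from limma). The sum of *Axin1* and *Axin2* was 6.30 ± 1.71 RPKM in KD and 3.37 ± 0.164 RPKM in controls (SD, n = 3 each). *Axin1* was the 1 call among 14 tested of 18 genes for cytoplasmic transduction and the destruction complex, which is 7.14% beside 24.0% of all genes. It was called without KD replicate 3 and not without any 1 of the other 5 libraries (adjusted p = 0.0803 to 0.103 from limma). The median of the 14 log2 fold changes was 0.05. *Csnk1a1*, the priming kinase of β-catenin, was at 28.5 ± 1.82 and 30.7 ± 1.87 RPKM, and *Csnk1d* at 10.3 ± 2.12 and 7.22 ± 0.540 RPKM (SD, n = 3 each, adjusted p = 0.515 and 0.0682 from limma).

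*Ctnnb1*, which encodes β-catenin, was by far the most abundant of the 10 genes. It had 59.1, 66.7 and 49.2 RPKM in KD and 44.9, 42.6 and 47.6 RPKM in controls. All KD libraries were above all controls, with KD replicate 3 only just so. The mean was 1.29 times that of controls, with a log2 fold change of 0.36 (95% CI 0.03 to 0.68, adjusted p = 0.103 from limma). Without KD replicate 3 it was 0.47 and passed the test (adjusted p = 0.0215 from limma), the only 1 of 12 alternatives to do so, and without any 1 of the other libraries the adjusted p was 0.198 to 0.245. β-catenin is controlled mainly through protein stability, which RNA does not show. *Ctnnb1* overlaps *Ulk4* and the antisense gene *4930593C16Rik* on the other strand. *Tcf7l2*, a DNA-binding partner of β-catenin, had 0.816, 0.386 and 0.575 RPKM in KD and 0.985, 0.717 and 0.713 RPKM in controls. The groups overlapped through KD replicate 1, and the log2 fold change was -0.19 (95% CI -0.51 to 0.14, adjusted p = 0.604 from limma).

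Of 13 other nuclear partners of β-catenin, 6 passed the filter. *Pygo2*, a reader of histone methylation that joins β-catenin through BCL9, rose from 3.07 ± 0.319 to 4.60 ± 0.923 RPKM (SD, n = 3 each, adjusted p = 0.0480 from limma) and was the 1 call, which is 16.7% beside 24.0% of all genes. It was called without KD replicate 3 and not without any 1 of the other libraries (adjusted p = 0.0988 to 0.161 from limma). *Bcl9l* was at 2.63 ± 1.78 RPKM in KD and 3.07 ± 0.795 RPKM in controls, and *Ctnnbip1*, an inhibitor of the binding of β-catenin to TCF, at 3.78 ± 0.198 and 4.42 ± 0.312 RPKM (SD, n = 3 each, adjusted p = 0.557 and 0.189 from limma).

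3 of 5 tested target genes other than *Axin2* rose, which is 60.0% beside 24.0% of all genes, and the other 2 were not called. All 3 calls remained without KD replicate 3, *Ccnd1* alone without KD replicate 1, KD replicate 2 or control replicate 2, and none without control replicate 1 or 3 (*Ccnd1* adjusted p = 0.0655 and 0.0687 from limma). *Ccnd1*, which encodes cyclin D1, had 3.62, 2.92 and 4.35 RPKM in KD and 1.17, 2.18 and 1.14 RPKM in controls (log2 fold change 0.90, SE 0.180, adjusted p = 0.0139 from limma). *Myc* had 7.88, 5.90 and 3.39 RPKM in KD and 2.58, 2.56 and 2.97 RPKM in controls (log2 fold change 0.80, SE 0.228, adjusted p = 0.0385 from limma). *Twist1*, a mesenchymal transcription factor, rose from 13.2 ± 0.850 to 17.7 ± 1.52 RPKM (SD, n = 3 each, adjusted p = 0.0402 from limma). All 3 are also targets of other pathways. *Wisp2*, listed under this older symbol of *Ccn5*, lay below the controls in every KD library at 20.5 ± 4.54 against 28.6 ± 2.30 RPKM, and *Wisp1* overlapped at 5.63 ± 1.68 and 6.78 ± 3.47 RPKM (SD, n = 3 each, adjusted p = 0.0753 and 0.695 from limma).

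**Figure D3:**
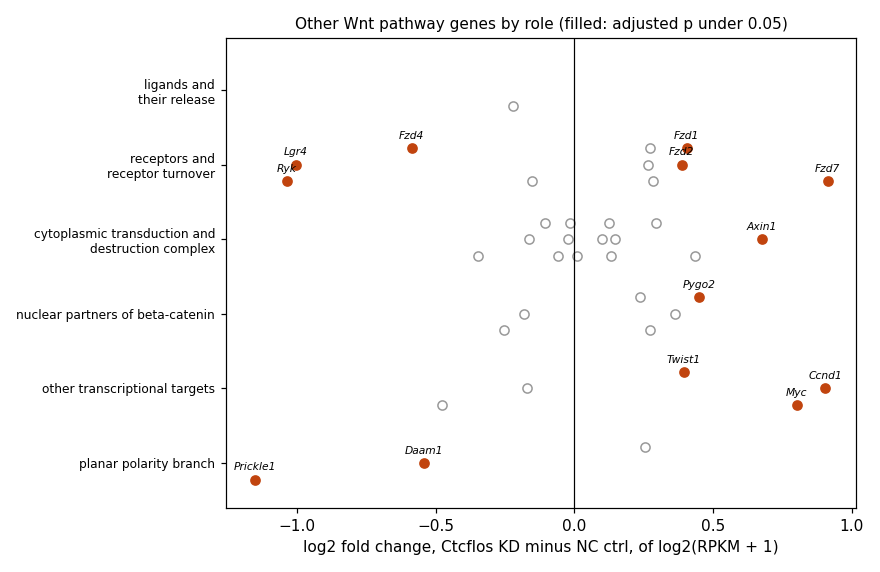
Log2 fold change of log2(RPKM + 1), Ctcflos KD minus NC ctrl (x axis), of the 39 pathway genes with a mean of at least 1 RPKM, by role (y axis, with points staggered for legibility). Filled red points are the 13 genes with an adjusted p under 0.05 from limma, 8 higher and 5 lower, and open points the others.

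Among the secreted antagonists, *Sfrp1* and *Sfrp2* had lower means in KD that missed the threshold. *Sfrp2* had 3.82, 2.84 and 2.34 RPKM in KD and 3.93, 4.16 and 4.83 RPKM in controls. Every KD library was below every control, with KD replicate 1 close to the lowest control. The log2 fold change was -0.42 (95% CI -0.76 to -0.09, adjusted p = 0.0694 from limma), and it passed without KD replicate 1 at -0.56 (adjusted p = 0.0368 from limma) and with median-of-ratios scaling at -0.45 (adjusted p = 0.0436 from limma). It passed in none of the other 10 alternatives, with 0.0982 to 0.222 without any 1 of the other libraries. *Sfrp1* had 6.93, 8.69 and 9.55 RPKM in KD and 9.41, 14.2 and 11.4 RPKM in controls. KD replicate 3 was above control replicate 1, so that the groups overlapped, and the log2 fold change was -0.43 (95% CI -0.81 to -0.04, adjusted p = 0.0998 from limma). Without KD replicate 3 it was -0.52 and passed (adjusted p = 0.0477 from limma), the only 1 of 12 alternatives to do so, and without any 1 of the other libraries the adjusted p was 0.0961 to 0.263. *Dkk3*, a divergent DKK family member, had 0.538, 0.528 and 0.320 RPKM in KD and 0.340, 0.592 and 0.318 RPKM in controls. Low and high libraries occurred in both groups, and the log2 fold change was 0.05 (95% CI -0.23 to 0.33, adjusted p = 1 from limma).

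The other 10 secreted antagonists were all under the filter, with *Frzb* at 0.213 ± 0.0827 and 0.322 ± 0.108 RPKM and *Dkk2* at 0.0725 ± 0.0300 and 0.0906 ± 0.0434 RPKM in KD and controls (SD, n = 3 each, adjusted p = 0.642 and 0.975 from limma without a filter). The summed RPKM of all antagonists, most of it *Sfrp1* and *Sfrp2*, was 11.7, 12.3 and 12.7 in KD and 14.2, 19.7 and 16.9 in controls (exact permutation p = 0.1, two-sided, the smallest possible). These sums did not overlap. SFRP genes are expressed by stromal and progenitor cells, whose markers did not move together. *Pdgfra* fell from 21.8 ± 2.57 to 13.1 ± 0.922 RPKM (SD, n = 3 each, adjusted p = 0.0104 from limma), while the summed RPKM of 6 progenitor markers overlapped at 195 to 411 in KD and 293 to 469 in controls. Most of this sum was *Ly6a*, with means of 281 RPKM in KD and 346 RPKM in controls. *Pdgfrb*, *Col1a1* and *Cd34* had higher and *Ly6a* and *Dpp4* lower means in KD, each with overlapping groups and no call. Of the other cell types, the endothelial sum was 0.666 to 0.984 against 1.24 to 1.46 and the mesothelial sum 3.16 to 3.88 against 4.38 to 5.53. The macrophage sums, 6.64 to 16.2 against 8.12 to 27.6, and the mural sums, 18.9 to 49.5 against 33.8 to 85.6, overlapped. Most of the macrophage sum was *Lyz2* in KD replicate 3 and the controls, while *Cd68* rose from 1.08 ± 0.727 to 3.24 ± 0.995 RPKM (SD, n = 3 each, adjusted p = 0.0230 from limma) and *Csf1r* had 1.10 to 1.48 RPKM in KD and 0.269 to 0.833 RPKM in controls (adjusted p = 0.151 from limma without a filter). Almost all of the mesothelial sum was *Lrrn4*, called lower at 3.11 to 3.88 RPKM in KD and 4.35 to 5.48 RPKM in controls (adjusted p = 0.0339 from limma). The mesothelial markers *Msln* and *Upk3b* were below 0.05 RPKM, and *Wt1* was at 0.0295 RPKM in KD and 0.0601 RPKM in controls. Most of the mural sum was *Acta2*, at 29.4 ± 16.6 RPKM in KD and 51.4 ± 28.2 RPKM in controls (SD, n = 3 each). The part of cell composition in the Wnt results was not tested.

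Genes of the planar polarity branch, which Wnt ligands such as WNT5A use, included *Prickle1*, the most decreased of the tested pathway genes. This gene of a cytoplasmic polarity protein had 0.654, 0.670 and 0.844 RPKM in KD and 2.54, 2.77 and 3.20 RPKM in controls. The KD libraries were at 23.0, 23.6 and 29.7% of the control mean (log2 fold change -1.15, SE 0.102, adjusted p = 0.00203 from limma), and the gene was called in all 12 alternatives. *Daam1*, a formin bound by dishevelled, had 2.32, 2.26 and 2.27 RPKM in KD and 4.26, 3.25 and 3.90 RPKM in controls (log2 fold change -0.54, SE 0.104, adjusted p = 0.0125 from limma). The *Daam1* call was lost without control replicate 1 (adjusted p = 0.0632) or control replicate 3 (0.0682, limma). Of 9 genes of this branch 3 passed the filter and 2 were called, which is 66.7% beside 24.0% of all genes. *Prickle1* passed the filter only through the controls, with means of 0.723 RPKM in KD and 2.84 RPKM in controls. The share of 66.7% thus rests on few genes, with 1 of them let in by the group where it is high. *Vangl1* was not called at 2.45 ± 0.419 and 1.88 ± 0.0984 RPKM (SD, n = 3 each, adjusted p = 0.131 from limma). *Prickle2*, under the filter, was at 0.620 ± 0.199 RPKM in KD and 1.29 ± 0.124 RPKM in controls (SD, n = 3 each, adjusted p = 0.110 from limma without a filter). With RefSeq mRNAs alone or the most abundant accession alone, *Prickle2* passed the filter and was called (adjusted p = 0.0138 and 0.0137 from limma). Without KD replicate 1 or KD replicate 2 it passed the filter and was not called (adjusted p = 0.0543 and 0.0560 from limma). Over all accessions only the control mean of *Prickle2* was above 1 RPKM, and fits with the filter adjust over fewer genes. *Prickle1* and *Daam1* span 96.8 and 161 kb.

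Over the whole list of 101 further pathway genes, 39 passed the filter and 13 were called, 8 higher and 5 lower. This is 33.3% beside 24.0% of all genes, and among the 13, *Prickle1* passed the filter only through the controls. The groups did not overlap in 22 of the 39, beside 44.8%. Their median log2 fold change was 0.13 and that of all genes 0.03. Among the 62 genes under the filter, *Wnt2* alone was called. Of these 62, 29 had a mean of 0.1 to 1 RPKM, a level at which 0.461% of all genes were called. The groups did not overlap in 20 of the 29, 10 with KD above and 10 with KD below the controls, beside 29.4% of all genes of this level. Single libraries decided many of the 13 calls. With KD replicate 3 left out all 13 remained among 20 pathway calls, and without KD replicate 1, KD replicate 2 or control replicate 2, 6, 5 and 5 of them remained. Without control replicate 1 or control replicate 3, *Lgr4* and *Prickle1* were the 2 that remained.

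**Figure D4:**
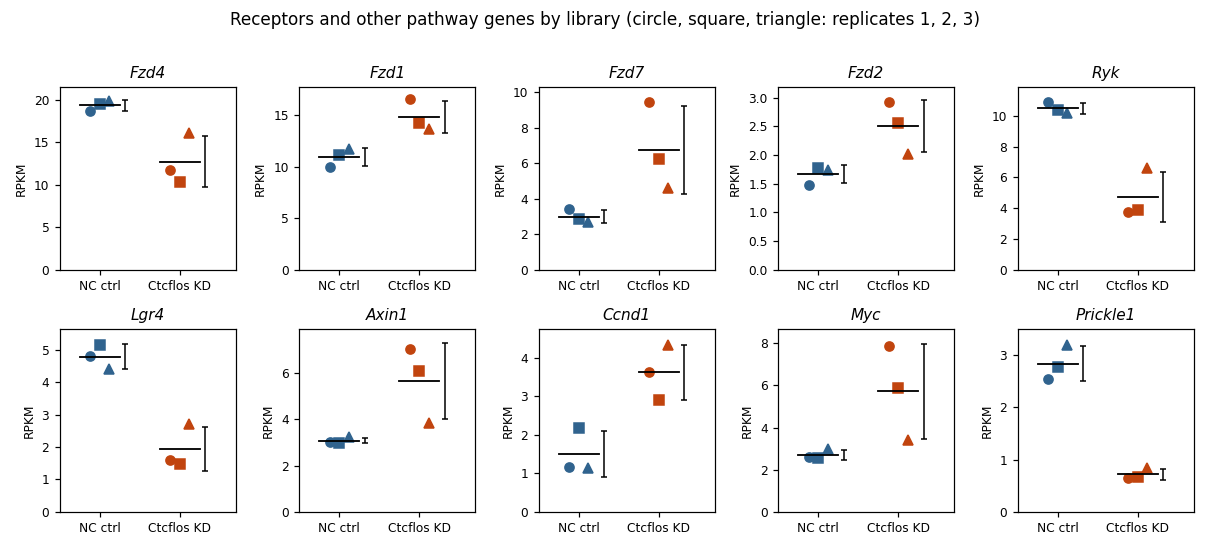
RPKM (y axis, linear, from 0) of 10 called pathway genes in the NC ctrl (blue) and Ctcflos KD libraries (red). Circle, square and triangle are replicates 1, 2 and 3, the line is the mean and the bar the SD. No gene overlaps between the groups, and the KD triangle is the one nearest to the controls in Fzd4, Fzd1, Fzd7, Fzd2, Ryk, Lgr4, Axin1, Myc and Prickle1, but not in Ccnd1.

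KD replicate 3 stood nearest to the control mean in 12 of 14 called genes, that is *Lrp6* and the 13 of the list, and in 78.5% of all 2803 called genes. It was also the KD library with the most residual *Ctcflos* RNA and the lowest depth. A part of either in this order was not tested.

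The genes most like *Wnt5a* over the 6 libraries, by Pearson's r of log2(RPKM + 1) among 11701 genes, were *Tmed5* (r = 0.982), *Nkap* (r = 0.980) and *Scamp1* (r = 0.976). Those most like *Axin2* were *Smarcc1* (r = 0.992), *Aff4* (r = 0.992) and the clone *AK145694* (r = 0.991). The points are the same 6 libraries, which differ in group and depth, and the genes are the extremes of a large search.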

How the data were processed

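Total RNA of 6 samples was sequenced by the authors from stranded total RNA libraries in 150 bp paired-end reads. The authors deposited 1 table of RPKM values per transcript accession with decimal commas. How it was made is not given in the sources used here; the splice analysis of the study names STAR and GRCm38. Groups came from sample titles. Of 168326 lines, 305 exact repeats were removed. RPKM was averaged over the accessions of a symbol, and log2(RPKM + 1) was tested with limma-trend (R 4.3.3, limma 3.58.1) in genes with a mean of at least 1 RPKM, with Benjamini-Hochberg adjustment over all of them at 0.05. Genes under the filter were read from a fit without it. A fold change on log2(RPKM + 1) understates that of genes of low level. The use of accessions was compared by diffSplice, and sums and shares by the exact permutation test (two-sided).

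Depth was recovered with Gencode vM21 lengths from low values, of which 96.1 to 96.7% lay within 0.1 of a whole read. Recovered reads cover counting error only. Spans came from Gencode vM21, with older symbols matched through RefSeq, for 80.5% of 11701 genes. Promoters came from RefSeq (GRCm38.p6). Python 3.11.15 with pandas 2.3.3 and numpy 2.4.6 was used. The scripts were tested on simulated data.

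The genes and lists were chosen with earlier results of these data known. The text names all 10 genes, each pathway gene past the threshold, and for each role the 2 others of highest mean; *Wnt2* and *Rspo3* were added after their values were seen. Alternatives were a pseudocount of 0.1, no filter, median-of-ratios scaling, the replicate number as a block, RefSeq mRNAs alone, the most abundant accession alone, accessions of at least 5%, and each library left out.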

Additional observations from a re-analysis of the deposited data

How the results depend on the processing

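Of all genes, 2803 were called. The count was 2746 with a pseudocount of 0.1 and 304 without a filter, where 40388 further symbols enter the adjustment. Of the 10 Wnt genes 1 was called, 2 with median-of-ratios scaling, 0 without a filter, and 0 to 3 with each library left out in turn. Of the pathway list 13 were called, 2 without a filter and 2 to 20 with each library left out. All-gene counts ranged from 369 to 4810 with each library left out, and the share of higher calls from 31.4 to 56.7%, beside 48.1%. The count of Wnt genes with changed usage was 1, or 0 with accessions of at least 5%, and 0 to 1 with each library left out. With each library left out, *Lrp5* ranged from -0.16 (without KD replicate 1) to 0.13 on the log2 scale, with -0.04 without control replicate 2, and *Dkk3* from -0.0025 (without control replicate 3) to 0.13. The cause was not tested.

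Same-numbered KD and control libraries had deviations from their group means correlated by 0.287, -0.288 and -0.418. Since deviations cancel out within each group, these values cannot show whether libraries of the same number were paired. With the replicate block, 1671 genes and 6 pathway genes were called, and *Lrp6* had an adjusted p of 0.0417 (limma).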
